A study of Rattus norvegicus with 20 samples.

Results

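Phthalate and non-phthalate compounds were compared in foetal rat testis by setting the 8 DEHP and MEHP arrays together against the 8 TOTM and EHO arrays, 16 of the 20 arrays in the series, and by asking which genes differed in the same way in both phthalates and in neither of the other compounds. DEHP is di(2-ethylhexyl) phthalate, the diester plasticiser of soft plastics, and MEHP is its monoester, which the body forms from it. TOTM is tris(2-ethylhexyl) trimellitate, an ester of a benzene ring that carries a further carboxyl group, and EHO is a compound known here only by that label. The term relatives stands for TOTM and EHO. Pregnant Han Wistar rats received each compound by gavage at 500 mg/kg every day from gestation day 12 to day 19, so the compounds were matched by weight, not by molar amount. Control dams received corn oil, the vehicle, and every dam had the same dosing days. Each array was hybridised with RNA from testes pooled over at least 3 pups of 1 litter, with 4 arrays in each of 5 groups. p-values therefore measure the spread between litter pools.

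The foetal testis makes androgen in fetal Leydig cells. These cells build cholesterol from acetate through the mevalonate pathway or take it from lipoproteins, move it into mitochondria with the carrier Star, cut its side chain with Cyp11a1 and convert the product to androgen with Hsd3b, Cyp17a1 and Hsd17b3. Transcription of cholesterol and fatty acid synthesis genes is driven by SREBP factors, which are held back when sterols are plentiful. Phthalate diesters and their monoesters are known for lowering steroidogenic gene expression in foetal rat testis.

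Some arrays stood apart and touch every value below. MEHP 1 and MEHP 2 differed by less than the noise between repeated spots of 1 array (0.758 times that noise, against a median of 2.26 times for pairs from the same group) and were counted as 1 sample, which gives n = 3 for MEHP, n = 4 for each other group, 7 phthalate samples and 8 relative samples. MEHP 3 lay closer to control 2 (1.29 times the noise) than to any MEHP array, and MEHP 4 lay closest to DEHP 3 (1.32 times). Control 2, part of every control mean it has a value for, itself lay 3.87 to 4.29 times the noise from the other controls. Those lay 1.91 to 2.01 times apart. A nearest array in another group was not particular to MEHP: control 3 lay closest to TOTM 1 (1.49 times) and DEHP 4 to TOTM 3 (1.55 times). In the authors' deposited table, the MEHP folds differed from the mean of MEHP 1 and 2 by a median of 0.0704 in log2 over 3653 probes, from MEHP 4 by 0.318 and from MEHP 3 by 0.55. On the EHO arrays 46.1% to 63.5% of spots were well above background, against 63.9% to 79.8% on all other arrays. Each group was hybridised on a slide of its own, which means that a slide effect and a compound effect cannot be told apart. Amh, the Sertoli cell hormone that marks testis, lay between 5.22 and 6.18 on all 20 arrays. Levels here are log2 signals with 0 at the 75th percentile of their array, and differences are in log2 with their standard error.

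Most genes that make cholesterol, and several that desaturate fatty acids, had lower levels in both phthalates than in both relatives, while no single gene passed the adjusted threshold between the classes. With limma, 0 of 24248 genes had an adjusted p under 0.05 for phthalates minus relatives (0%), and 2406 had an unadjusted p under 0.05 (9.92%), of which 836 were lower in phthalates (3.45%) and 1570 higher (6.47%). The median difference of all genes was 0.10 with this scaling and −0.06 when arrays were centred on their median, where 1252 genes were lower and 845 higher at the same unadjusted p. Of the 23 measured genes of the list for cholesterol synthesis and uptake, 18 were lower at an unadjusted p under 0.05 and none was higher. In the list for fatty acid synthesis 4 of 11 were lower, in that for steroidogenesis 7 of 16 were lower and 1 was higher, and in that for glutathione and oxidative stress 4 of 18 were lower. All lists were chosen with earlier results of these data known, so their counts are a description and not a test.

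The smallest p-value belonged to Scd, the stearoyl-CoA desaturase that makes oleate and palmitoleate. Its level was −2.31, −1.86, −2.09 and −2.41 on the DEHP arrays, −2.13, −2.31, −1.47 and −2.58 on the MEHP arrays, −0.91, −1.30, −1.10 and −0.89 on the TOTM arrays and −1.41, −1.37, −1.45 and −1.47 on the EHO arrays, with controls between −1.14 and −0.81. Every phthalate sample lay below every relative sample, though MEHP 3 and the lowest EHO array were almost level. The class difference was −0.89 ± 0.14, a 1.86-fold lower level (limma adjusted p = 0.0712, 95% interval −1.18 to −0.60). Without MEHP 3 it was −1.05 with an adjusted p = 0.000553, and with normexp background correction and quantile normalization it was −0.41 and did not pass.

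**Figure D1:**
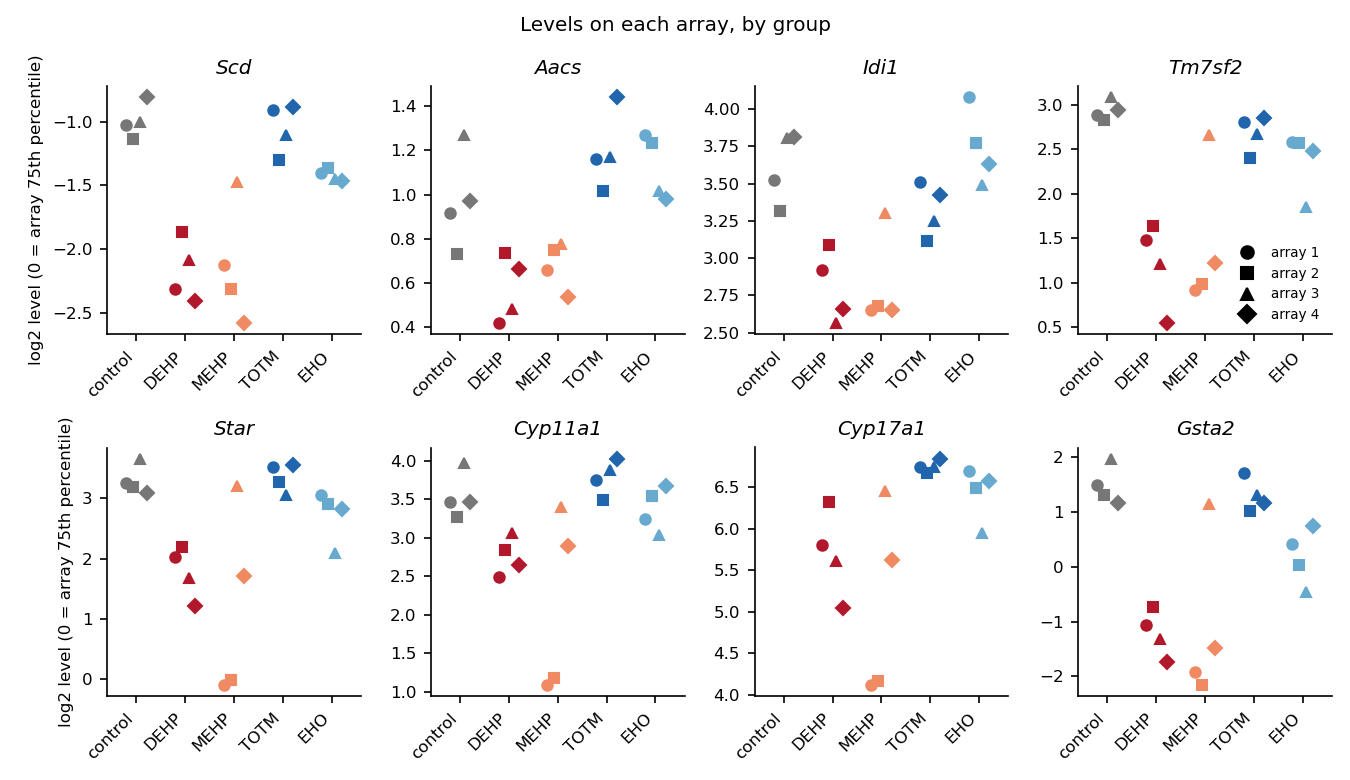
Log2 level of 8 genes on each of the 20 arrays, with 0 at the 75th percentile of that array, by group, with 1 marker shape per array number and no averaging. Scd and Aacs are lower on all DEHP and MEHP arrays than on all TOTM and EHO arrays. For Star and Cyp11a1 the MEHP 3 array lies within the control range, and for Gsta2 just below it. Cyp17a1 has no control value because its spot was marked as an outlier on all 4 control arrays.

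Pairs of compounds were then compared at the shared dose, with p-values adjusted jointly over all genes and all 6 pairs. Scd was lower with DEHP than with TOTM (−1.12 ± 0.19, adjusted p = 0.00371), lower with DEHP than with EHO (−0.75, adjusted p = 0.0419) and lower with MEHP than with TOTM (−1.04, adjusted p = 0.0103). The difference between MEHP and EHO was −0.67 and did not pass (adjusted p = 0.0842). DEHP and MEHP, the diester and its monoester, differed in Scd by −0.08 with an interval from −0.50 to 0.35, and TOTM and EHO by 0.37 with an interval from −0.02 to 0.76, so neither difference passed and both intervals leave room for a change. No gene passed in all 4 phthalate-relative pairs after adjustment (0 of 24248, 0%), and 30 had an unadjusted p under 0.05 in each of the 4 (0.124%), 23 lower (0.0949%) and 7 higher (0.0289%) in phthalates. Of those 23, 8 belong to the cholesterol list (among them Idi1, Mvk, Tm7sf2, Sqle, Mvd, Nsdhl and Msmo1) and 2 to fatty acid synthesis (Scd and Fads1).

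The number of genes called differed widely between pairs. Between DEHP and TOTM 49 genes were called (0.202%), 17 of them lower with DEHP (0.0701%), and 0 when p-values were adjusted within that pair alone (0%). Between DEHP and EHO 971 were called (4%), 615 of them lower with DEHP (2.54%). Between MEHP and TOTM 461 were called (1.9%), 42 of them lower with MEHP (0.173%), and between MEHP and EHO 399 (1.65%), 136 of them lower with MEHP (0.561%). DEHP and MEHP differed in 333 genes (1.37%), 325 of them higher with MEHP (1.34%), and TOTM and EHO in 1734 (7.15%), 1095 of them lower with TOTM (4.52%). Left-out arrays moved these counts widely, from 15 to 167 for DEHP and TOTM and from 462 to 6461 for DEHP and EHO, with the highest counts reached without EHO 4. Called cholesterol genes were all lower with the phthalate: 3 for DEHP against TOTM, 4 for DEHP against EHO, 4 for MEHP against TOTM and 3 for MEHP against EHO, out of 23 in each pair. Dhcr7 and Fdft1, which makes squalene, passed against TOTM in both phthalates (Fdft1 −0.43, adjusted p = 0.0392, and −0.57, adjusted p = 0.0130), while Idi1 and Sqle passed against EHO in both (Sqle −0.68 in each, adjusted p = 0.0336 and 0.0485). No cholesterol gene was called between DEHP and MEHP or between TOTM and EHO, beside 1.37% and 7.15% of all genes. With 23 members, both counts of 0 are near the background.

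The cholesterol list was traced along the pathway. Acat2 and Hmgcs1, which join acetyl units at the start of the pathway, lay at −0.47 ± 0.14 and −0.46 ± 0.18 in phthalates minus relatives, and a further probe of Acat2 gave −0.03. Mvk and Mvd, the kinase and the decarboxylase that act on mevalonate and its phosphates, lay at −0.35 ± 0.07 and −0.43 ± 0.09. Idi1, the isomerase that makes the allylic building block, averaged 2.81 ± 0.24 with DEHP (SD, n = 4), 2.87 ± 0.37 with MEHP (SD, n = 3), 3.33 ± 0.18 with TOTM and 3.74 ± 0.25 with EHO (SD, n = 4 each), against 3.62 ± 0.24 in control. The DEHP arrays read 2.92, 3.09, 2.56 and 2.66 and the MEHP arrays 2.65, 2.68, 3.30 and 2.65, and of these only MEHP 3 reached into the TOTM range of 3.12 to 3.51. Idi1 passed against EHO with DEHP (−0.94, adjusted p = 0.00987) and with MEHP (−0.87, adjusted p = 0.0238), but not against TOTM (−0.52 and −0.45). The class difference of Idi1 was −0.69 with this probe and −1.11 with a further probe.

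Later steps lay on the same side of 0. Sqle, the squalene epoxidase, lay at −0.57 ± 0.12, Cyp51, which demethylates lanosterol, at −0.70 ± 0.17, Msmo1, a sterol demethylating oxidase, at −0.74 ± 0.18, Nsdhl, a sterol dehydrogenase, at −0.43 ± 0.09, and Ebp, a sterol isomerase, at −0.59 ± 0.15. Tm7sf2, a sterol reductase, had the widest gap, at −1.11 ± 0.22 or 2.16-fold lower. Its level was 1.48, 1.64, 1.22 and 0.55 on the DEHP arrays, 0.92, 0.99, 2.66 and 1.22 on the MEHP arrays, 2.81, 2.41, 2.67 and 2.85 on the TOTM arrays and 2.58, 2.57, 1.86 and 2.48 on the EHO arrays. MEHP 3 was the only phthalate array within the range of the relatives. Tm7sf2 passed for DEHP against TOTM (−1.46, adjusted p = 0.0164) and in no other phthalate-relative pair. Dhcr7, the reductase of the last step, was lower than with TOTM in both phthalates (−0.63 with DEHP, adjusted p = 0.0414, and −0.85 with MEHP, adjusted p = 0.0129), and its differences from EHO were −0.33 and −0.54.

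The regulators of the pathway lay nearer to 0 with the probes used. Insig1, which retains SREBP factors when sterols are plentiful, lay at −0.25 ± 0.20 (unadjusted p = 0.240), and Srebf2, the cholesterol-directed SREBP gene itself, at −0.14 ± 0.13. Insig1 was below control in all 4 compounds, by −0.90 with DEHP, −0.69 with MEHP, −0.46 with TOTM and −0.63 with EHO, and did not pass in any. The 4 probes of Insig1 gave class differences from −0.56 to −0.25, of which the probe used was nearest to 0. Without MEHP 3 that probe gave −0.49.

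In all 4 phthalate-relative pairs together, 21 of 23 cholesterol genes had a difference below 0, against 8.14% of all genes, and none had all 4 above 0, against 14% of all genes. The list was chosen with earlier results of these data known, so these counts are a description and not a test. The median over the list was −0.43 for DEHP minus TOTM, −0.33 for DEHP minus EHO, −0.45 for MEHP minus TOTM and −0.40 for MEHP minus EHO, beside medians of all genes of −0.02, 0.18, −0.07 and 0.16. The mean level of the 21 list genes with a value on all arrays ran from 0.89 to 1.35 in the 7 phthalate samples, from 1.39 to 1.63 in the 8 relative samples and from 1.45 to 1.78 in the 4 controls. The top phthalate sample was MEHP 3, and the next was DEHP 2 at 1.27. The count of members below 0 in all 4 pairs was 21 without MEHP 3 and 21 without EHO 1 and 2, and all-gene shares were then 6.71% and 21.4%.

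**Figure D2:**
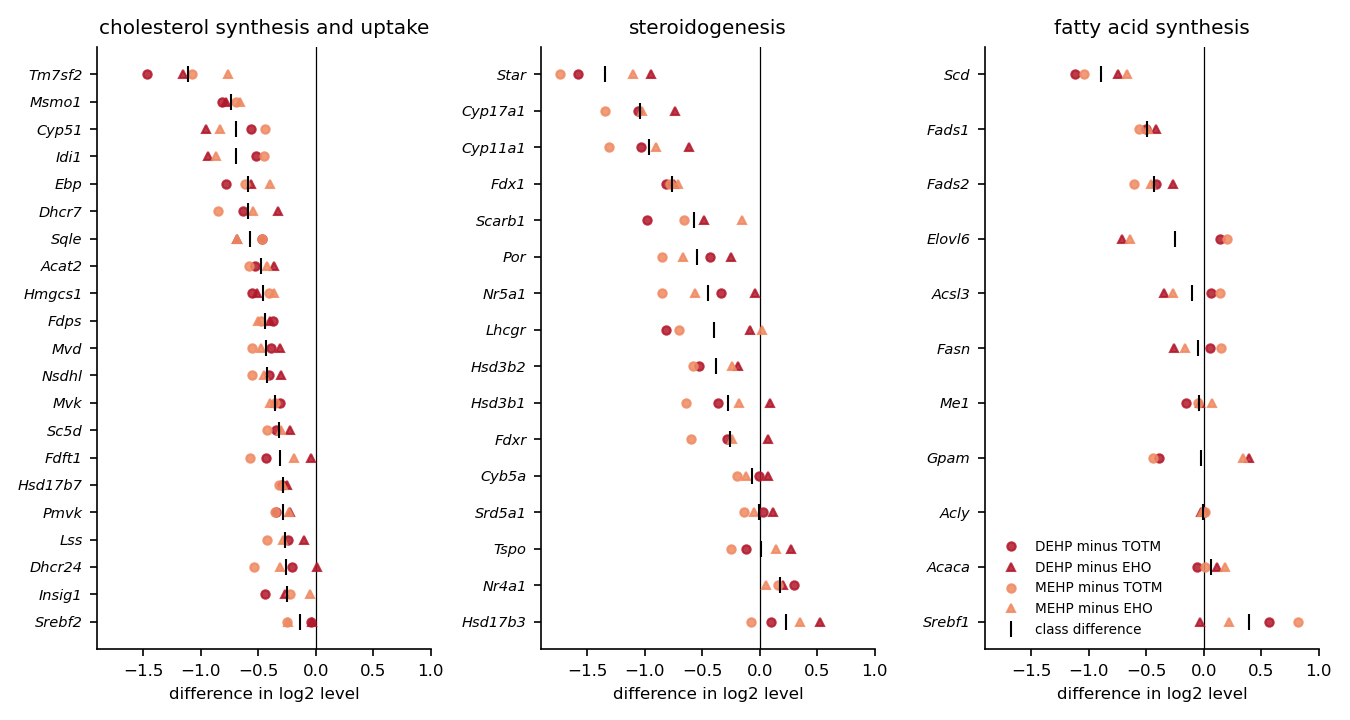
Difference in log2 level for measured genes of 3 lists in the 4 phthalate-relative pairs (circles against TOTM, triangles against EHO, dark for DEHP, light for MEHP), with the class difference as a bar and genes sorted by it. Over all measured members, 2 of which are not drawn, 21 of 23 cholesterol genes have all 4 differences below 0, in steroidogenesis 8 of 16, and in fatty acid synthesis 3 of 11. The lists were chosen with earlier results of these data known.

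Promoters of the cholesterol genes were inspected because these genes were lower together. Among 17 of the 23 measured genes that matched by symbol in the RefSeq promoter table (GRCr8), 14 held a CCAAT box, the motif of the factor NF-Y, which often acts beside SREBP, as CCAAT on either strand within 250 bases before the gene start. The same letters were found in 36.1% of 6439 promoters of tested genes and in 34.3% of all 27457. The sterol regulatory element in the form TCACNCCAC, searched on both strands and apart from the CCAAT box, was in 0 of the 17 and in 0.947% of promoters of tested genes, a statement on these letters in this window only. The CCAAT box was in 5 of 8 matched promoters of the fatty acid list and 3 of 12 of the steroidogenesis list. The 250 bases before the start of 4 genes are given 5′ to 3′ with each CCAAT or its reverse complement ATTGG in capitals, for Idi1 (chr17:66547525-66547774, minus strand), Tm7sf2 (chr1:212789542-212789791, minus strand), Mvk (chr12:47819504-47819753, minus strand) and Mvd (chr19:67414975-67415224, minus strand), 4 of the genes with an unadjusted p under 0.05 in every phthalate-relative pair, chosen as examples that hold the box. Scd (chr1:253231732-253231981, minus strand) met the same p limit with the smallest class p-value and is shown as a promoter with 0 copies, as was found for Dhcr7 too. Mvk holds 5 copies, Idi1 holds 2, and Tm7sf2 and Mvd hold 1 each.
Idi1: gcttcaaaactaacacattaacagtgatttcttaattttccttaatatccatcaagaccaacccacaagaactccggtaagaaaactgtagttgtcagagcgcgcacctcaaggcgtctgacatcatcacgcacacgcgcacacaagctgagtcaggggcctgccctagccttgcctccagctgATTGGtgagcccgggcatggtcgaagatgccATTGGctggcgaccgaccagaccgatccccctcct
Tm7sf2: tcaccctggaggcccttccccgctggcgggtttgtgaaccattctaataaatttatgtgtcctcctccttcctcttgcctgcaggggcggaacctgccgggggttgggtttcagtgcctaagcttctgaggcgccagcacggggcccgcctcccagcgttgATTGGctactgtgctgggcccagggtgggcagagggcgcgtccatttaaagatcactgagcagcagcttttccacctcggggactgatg
Mvk: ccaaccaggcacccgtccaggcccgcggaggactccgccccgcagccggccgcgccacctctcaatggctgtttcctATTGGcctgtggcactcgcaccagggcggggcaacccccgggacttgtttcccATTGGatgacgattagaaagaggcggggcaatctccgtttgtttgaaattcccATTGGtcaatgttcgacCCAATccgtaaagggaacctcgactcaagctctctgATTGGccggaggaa
Mvd: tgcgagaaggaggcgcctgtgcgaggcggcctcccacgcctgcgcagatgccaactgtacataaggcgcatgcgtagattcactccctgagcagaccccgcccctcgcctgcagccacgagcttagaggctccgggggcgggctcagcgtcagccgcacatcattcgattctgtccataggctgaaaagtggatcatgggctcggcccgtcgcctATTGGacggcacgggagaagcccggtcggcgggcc
Scd: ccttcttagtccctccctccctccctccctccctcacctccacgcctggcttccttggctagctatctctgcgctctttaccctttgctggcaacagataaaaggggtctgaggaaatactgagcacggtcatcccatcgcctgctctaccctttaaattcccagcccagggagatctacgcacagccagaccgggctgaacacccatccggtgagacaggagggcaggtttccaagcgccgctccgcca

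A few genes did not overlap between the classes at all. All 7 phthalate samples lay below all 8 relative samples for 15 of the 24235 genes with values in every sample (0.0619%) and above them for 3 (0.0124%). Of the 15, 9 have a symbol: Scd, Aacs, Fads1, Fads2, Mvk, Mvd, Acsl4, Slc3a2 and Ly6e, of which Fads2, Mvd, Acsl4, Slc3a2 and Ly6e were singled out after their values were seen. Aacs, which turns acetoacetate into a precursor of lipids, was 0.42, 0.73, 0.48 and 0.66 on the DEHP arrays, 0.66, 0.75, 0.78 and 0.53 on the MEHP arrays, 1.16, 1.02, 1.17 and 1.44 on the TOTM arrays and 1.27, 1.23, 1.01 and 0.98 on the EHO arrays. Aacs differed by −0.54 ± 0.10 between classes (limma adjusted p = 0.148) and passed for DEHP against TOTM (−0.62, adjusted p = 0.0166) and DEHP against EHO (−0.55, adjusted p = 0.0327). Control 2, at 0.73, lay within the phthalate range of Aacs, while the other 3 controls lay between 0.92 and 1.27.

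Fads1 and Fads2, the desaturases of polyunsaturated fatty acids, lay at −0.49 ± 0.10 and −0.44 ± 0.10 between classes. Fads1 ran from 0.86 to 1.23 on the phthalate arrays, from 1.25 to 1.61 on the relative arrays and from 1.11 to 1.65 on the control arrays, and passed against TOTM with DEHP (adjusted p = 0.0499) and with MEHP (adjusted p = 0.0405). Acsl4, which activates arachidonate, lay at −0.37 ± 0.08, Slc3a2, the heavy chain of amino acid transporters, at −0.45 ± 0.10, and Ly6e, a membrane-anchored surface protein, at −0.41 ± 0.12. For Aacs, Fads1, Acsl4, Slc3a2 and Ly6e the relatives lay above the control mean and the phthalates below it: Aacs was at −0.40 with DEHP and −0.30 with MEHP but at 0.23 with TOTM and 0.15 with EHO, relative to the same controls, and these 4 values did not pass. Other fatty acid synthesis genes did not follow. Fasn, the fatty acid synthase, lay at −0.05 ± 0.10, Acaca, which supplies its malonyl units, at 0.06 ± 0.09, and Acly, which makes cytosolic acetyl-CoA, at −0.01 ± 0.11. Elovl6, an elongase, was lower than EHO in both phthalates (−0.71 with DEHP and −0.64 with MEHP) and slightly above TOTM in both (0.14 and 0.20), so its class difference of −0.25 ± 0.11 did not hold against each relative.

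Star, Cyp11a1 and Cyp17a1 had the largest differences in the steroidogenesis list, whose median of −0.39 was no larger than that of the cholesterol list. In bulk tissue, fewer Leydig cells and less RNA per cell cannot be told apart. Star was 2.03, 2.19, 1.67 and 1.21 on the DEHP arrays, −0.10, −0.03, 3.21 and 1.71 on the MEHP arrays, 3.52, 3.28, 3.06 and 3.56 on the TOTM arrays and 3.06, 2.91, 2.09 and 2.83 on the EHO arrays. MEHP 1 and 2 were the lowest arrays and MEHP 3 lay among the TOTM and control arrays, so that MEHP averaged 1.62 ± 1.64 (SD, n = 3) against 1.77 ± 0.44 with DEHP, 3.35 ± 0.23 with TOTM, 2.72 ± 0.43 with EHO and 3.30 ± 0.25 in control (SD, n = 4 each). The class difference was −1.34 ± 0.34, or 2.53-fold lower (limma adjusted p = 0.293). It was −1.74 without MEHP 3 (adjusted p = 0.0137), −2.18 without MEHP 3 and 4, where MEHP is a single sample assumed to vary like the other groups (adjusted p = 0.00110), and −0.92 without MEHP 1 and 2.

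Cyp11a1, the side-chain cleavage enzyme, was 2.49, 2.84, 3.07 and 2.64 on the DEHP arrays and 1.09, 1.18, 3.40 and 2.89 on the MEHP arrays, and ran from 3.04 to 4.03 on the relative arrays, so that MEHP 3 and DEHP 3 reached into the range of the relatives. Its class difference was −0.96 ± 0.25 (limma adjusted p = 0.296). Cyp17a1, the enzyme of the step to androgen, had no usable control spot and was compared between compounds only. It averaged 5.69 ± 0.53 with DEHP, 5.41 ± 1.17 with MEHP, 6.75 ± 0.07 with TOTM and 6.43 ± 0.33 with EHO, a class difference of −1.04 ± 0.28. Fdx1, a ferredoxin that passes electrons to Cyp11a1, lay at −0.76 ± 0.27, Por, which donates electrons to Cyp17a1, at −0.55 ± 0.16, and Scarb1, the lipoprotein cholesterol receptor, at −0.57 ± 0.33. A further probe of Scarb1 gave −1.06. Nr5a1, which activates steroidogenic genes, lay at −0.45 ± 0.18 with values of −0.04 for DEHP minus EHO and −0.85 for MEHP minus TOTM. Nr5a1 averaged −1.58 in control, −1.35 with DEHP, −1.86 with MEHP, −1.01 with TOTM and −1.30 with EHO. Por averaged 2.59 in control, 2.63 with DEHP, 2.21 with MEHP, 3.06 with TOTM and 2.88 with EHO. For both genes only MEHP lay below the control mean. Hsd3b1 (−0.27 ± 0.24) and Lhcgr, the luteinising hormone receptor (−0.39 ± 0.22, well above background on 2 DEHP, 2 MEHP and 1 EHO arrays), had at least 1 phthalate-relative pair at or above 0. A further probe of Lhcgr gave a class difference of −0.06. Of the 16 steroidogenesis genes 0 were called in any of the 6 pairs, beside 0.0701% to 2.54% of all genes called lower in the 4 phthalate-relative pairs, so this count is near the background.

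Of 16 steroidogenesis genes, 8 were below 0 in all 4 pairs, and 9 were without MEHP 3. Without MEHP 3 and 4, 7 of the 16 passed as lower over all genes, among them Star, Cyp11a1 (−1.64), Cyp17a1 (−1.67), Fdx1 (−1.36) and Scarb1 (−1.37), against 0.107% of all genes called. Without MEHP 1 and 2, 0 of the 16 passed, 6 were below 0 in all 4 pairs, and the list median was −0.15, against −0.69 without MEHP 3 and 4. The list mean ran from 1.26 to 2.47 in phthalate samples and from 2.06 to 2.68 in relative samples, so the classes overlapped. Fetal Leydig markers other than enzymes had 4 of 10 members below 0 in all 4 pairs and a median of −0.20. Summed over the 9 complete markers, the linear level ran from 56.9 to 68.0 on the DEHP arrays, 60.2 to 90.4 with MEHP, 69.7 to 85.6 with TOTM, 64.5 to 98.9 with EHO and 70.6 to 94.2 in control. The part of Leydig cell number in the steroidogenic differences was not tested. Insl3, the Leydig hormone of testis descent, lay at −0.43 ± 0.27, read 3.45 and 3.53 on MEHP 1 and 2, and lay between 4.82 and 5.95 on all other arrays with a value. Inha, an inhibin subunit, lay at −0.39 ± 0.15 and Dlk1, a surface protein of immature cells, at −0.37 ± 0.13, with −0.03 for DEHP minus TOTM and −0.71 for MEHP minus EHO. Of the 18 Sertoli and the 9 gonocyte markers 0 were lower in all 4 pairs, near the 8.14% of all genes, and the Sertoli count was 3 with normexp and quantile normalization and 2 with median scaling.

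**Figure D3:**
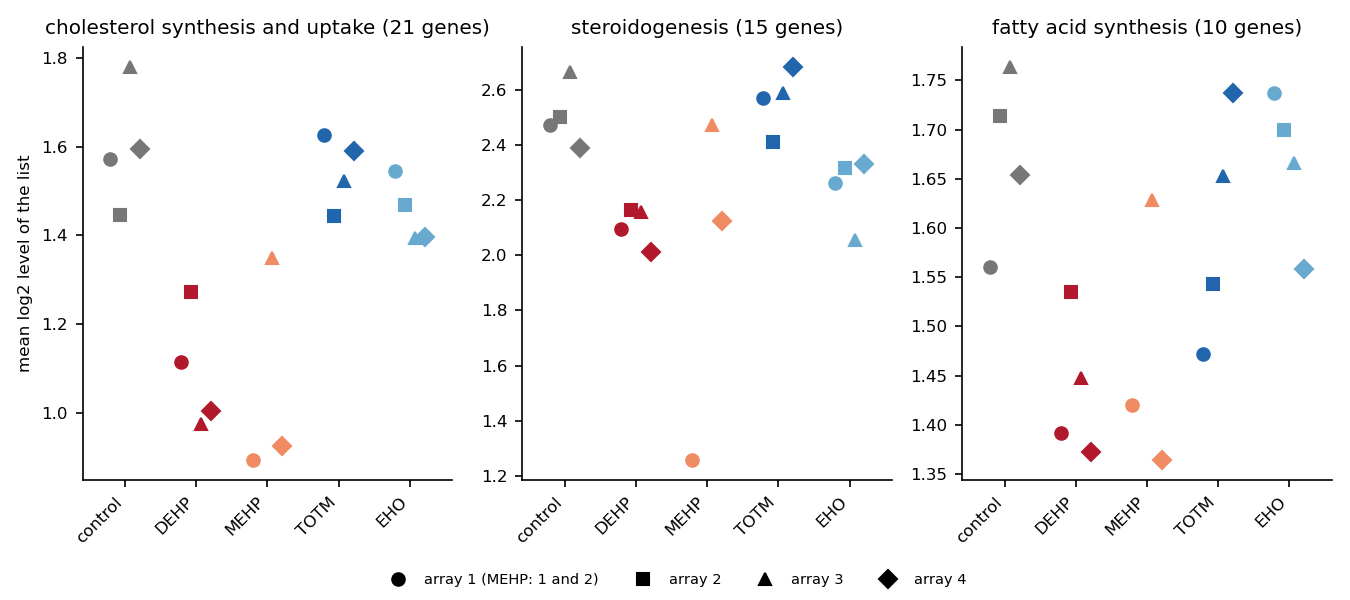
Mean log2 level of the genes in 3 lists that have a value on every array, for each sample by group, with MEHP 1 and 2 averaged as 1 point. The cholesterol means of the 7 phthalate samples (0.89 to 1.35) lie below those of the 8 relative samples (1.39 to 1.63), while the steroidogenesis means overlap (1.26 to 2.47 against 2.06 to 2.68).

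**Figure D4:**
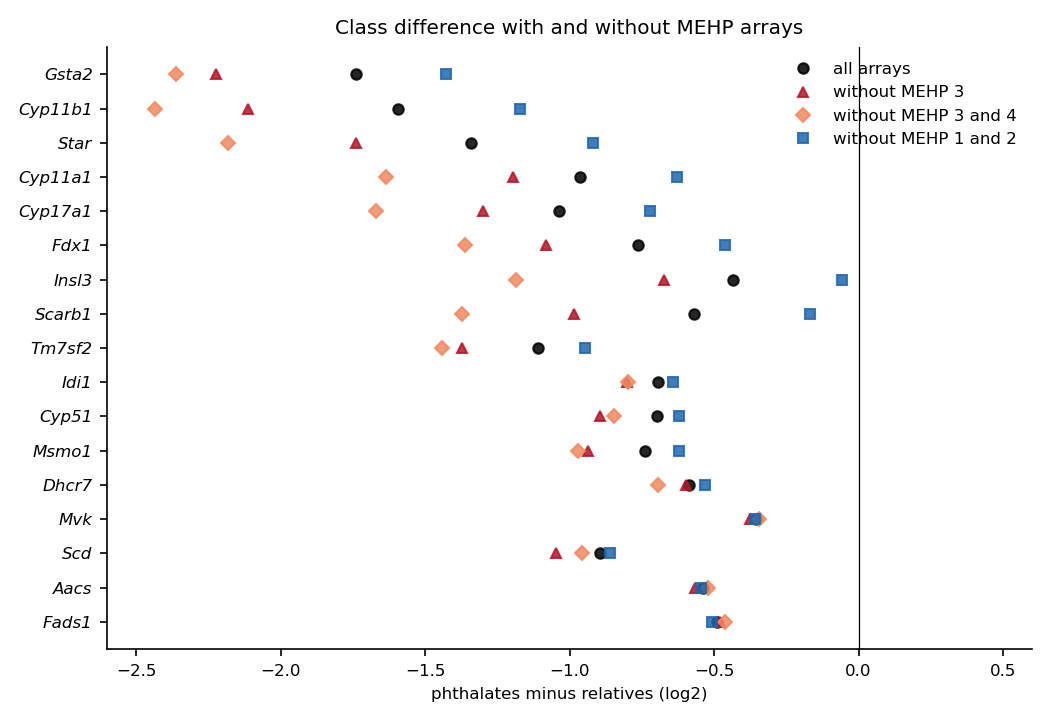
Phthalates minus relatives in log2 for 17 genes with all arrays, without MEHP 3, without MEHP 3 and 4, and without MEHP 1 and 2. Star moves from −0.92 without MEHP 1 and 2 to −2.18 without MEHP 3 and 4, while Mvk, Aacs and Fads1 stay nearly in place.

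Further large differences lay outside the androgen pathway. Gsta2, a glutathione transferase, was −1.05, −0.73, −1.31 and −1.74 on the DEHP arrays, −1.92, −2.15, 1.16 and −1.47 on the MEHP arrays, 1.71, 1.03, 1.31 and 1.17 on the TOTM arrays and 0.42, 0.03, −0.46 and 0.74 on the EHO arrays. Apart from MEHP 3, every phthalate array lay below every relative array, and EHO lay between the phthalates and TOTM. The class difference was −1.74 ± 0.36, or 3.34-fold lower, and Gsta2 passed against TOTM with DEHP (−2.51, adjusted p = 0.0109) and with MEHP (−2.09, adjusted p = 0.0447), but not against EHO. A further probe of Gsta2 gave −3.03. Gsta1 and Gsta3, of the same family, lay at −0.35 ± 0.19 and −0.34 ± 0.18, and whether these probes share signal was not tested. Cyp11b1, an enzyme of adrenal corticosteroid synthesis, lay at −1.59 ± 0.42 and passed for DEHP against TOTM alone (−2.51, adjusted p = 0.0260). Gabrq, a subunit of GABA receptors, differed from EHO with DEHP (−1.20, adjusted p = 0.00428) and MEHP (−1.16, adjusted p = 0.00953), and EHO lay 1.04 above control while the phthalates lay 0.16 and 0.12 below it.

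Of the genes with a class difference above 0, the 8 with a symbol and the smallest p-values were Cstf1, Ergic2, Ppp1r14bl, Bclaf1, Corin, Runx1, C11h3orf38 and Arl5a. Cstf1, a polyadenylation factor, was not well above background on any EHO array and was measured on all others, at least 1.29-fold higher with DEHP than EHO and at least 1.09-fold higher with MEHP (adjusted p = 0.000367 and 0.00236). TOTM too was at least 1.07-fold above EHO (limma adjusted p = 0.00149). Cstf1 averaged −2.67 with TOTM, beside −2.40 with DEHP and −2.64 with MEHP. Ergic2, a protein of traffic between endoplasmic reticulum and Golgi, was well above background on the 4 MEHP arrays and on no other array, at least 1.69-fold higher with MEHP than with TOTM. Ppp1r14bl was lower with DEHP than with MEHP (−1.47, interval −1.72 to −1.21) and lower with DEHP than with EHO (−0.69, adjusted p = 0.00304), and DEHP minus TOTM was 0.06. Ergic2 likewise lay at −0.91 for DEHP minus EHO, where neither group was well above background. Runx1, a transcription factor of blood and other cells, was higher in both phthalates against both relatives (0.31, 0.29, 0.55 and 0.53), and passed for MEHP against TOTM (adjusted p = 0.0436) and MEHP against EHO (adjusted p = 0.0495). Bclaf1, Corin and Arl5a were not well above background on any EHO array, and C11h3orf38 lay at 0.46 ± 0.11. Bclaf1 was well above background on 3 DEHP, 2 MEHP, 1 TOTM and 4 control arrays. Corin was so on 2 DEHP, 4 MEHP, 1 TOTM and 2 control arrays. Corin and Ergic2 thus entered the test through the MEHP arrays only, and their class differences rest in part on values near background.

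The rule of a shared and exclusive change was then applied against control. A gene qualified if it moved by at least 1.5-fold the same way in DEHP and MEHP and by less than 1.5-fold in TOTM and EHO. By size alone 24 of 23928 genes qualified, all of them lower (0.1%), and none with an adjusted class p under 0.05. The mirror rule for the relatives found 104 lower (0.435%) and 31 higher (0.13%) genes, again none with an adjusted p. No gene was called against control in both phthalates and in neither relative (0%). Since only 1 gene was called for DEHP against control (0.00418%), at most 1 could have qualified, and this 0 decides nothing. The phthalate genes are a description, since the fold limit chose them.

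Of these 24 genes, 16 have a symbol, 6 of them in the cholesterol list (Idi1, Tm7sf2, Cyp51, Ebp, Acat2 and Hmgcs1), 3 in steroidogenesis (Star, Cyp11a1 and Fdx1) and 1 in fatty acid synthesis (Scd). Scd lay at −1.18 with DEHP and −1.10 with MEHP but at −0.06 with TOTM and −0.43 with EHO, against the same controls. Star lay at −1.53 and −1.68 but at 0.05 with TOTM and −0.58 with EHO, just within the limit. Ddc, which makes amine transmitters, lay at −1.33 and −1.11 but at −0.04 and −0.39, Pdyn, the precursor of opioid peptides, at −0.93 and −0.88 but at −0.06 and −0.31, and Hes6, a transcription factor, at −0.69 and −0.84 but at −0.0038 and −0.38. Slc7a8, an amino acid transporter, Slc16a3, a lactate transporter, and Vsnl1, a calcium sensor, complete the named genes. A further probe of Vsnl1 gave a class difference of 0.12, on the other side of 0 from the −0.41 of the probe used. Just inside the limit were Vsnl1 (−0.59 with DEHP) and Acat2 (−0.61), and just outside were Mag, a myelin glycoprotein (−0.57), and Hsd3b2 (−0.53).

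The authors' deposited table, which compares each compound with control probe by probe, was read by a different rule, with no fold limit. A probe counted if it was listed the same way for both phthalates and was absent from both other blocks. Its counts are therefore not comparable with those of the fold rule. It lists 1004 probes for DEHP, 3827 for MEHP, 3298 for TOTM and 4210 in a block headed EH, a label that no array carries. Of these probes in the authors' deposited table, 480 move the same way with DEHP and MEHP, and 109 of them are in neither the TOTM nor the EH block, 79 lower and 30 higher. The mirror rule on the authors' deposited table gives 158 probes, 47 lower and 111 higher. Among the 109 in the authors' deposited table are Scd (folds of −1.99 and −2.0), Idi1 (−1.67 and −1.8), Cyp11a1 (−1.68 and −5.1), Msmo1, Mvd, Sqle, Acat2, Hes6, Inha and Lhcgr. On the arrays, however, Lhcgr averaged −2.86 with EHO, close to −2.94 with DEHP and −2.84 with MEHP, against −1.91 in control. The authors' deposited table places Star, Tm7sf2 and Gsta2 in the EH block as well, at −1.52, −1.49 and −2.25, so they do not qualify there.

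**Figure D5:**
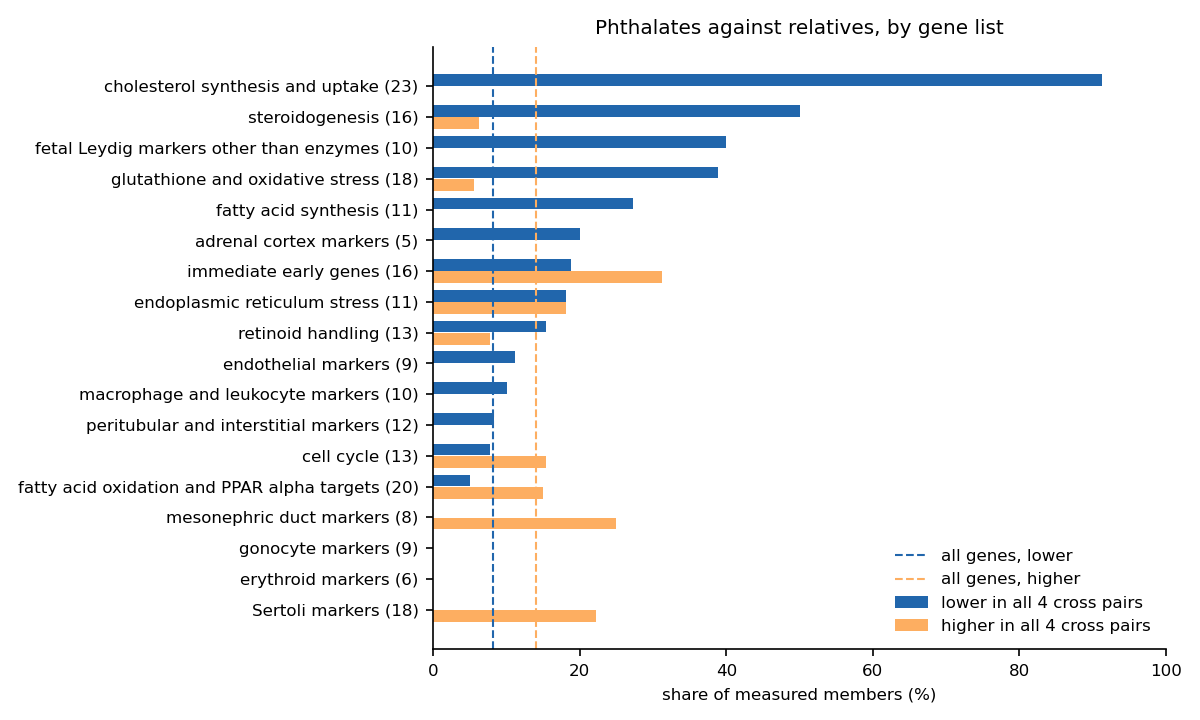
Share of the measured members of each of 18 gene lists (number measured in brackets) that were lower, or higher, in phthalates in all 4 phthalate-relative pairs, with dashed lines for all 24248 genes (8.14% lower and 14% higher). Cholesterol synthesis and uptake stands highest, with 21 of 23 members lower. The lists were chosen with earlier results of these data known.

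Other lists lay nearer to the background. In fatty acid oxidation and PPAR alpha targets 1 of 20 members was lower and 3 were higher in all 4 pairs, with a median of 0.02. With median scaling 8 of the 20 were lower and 1 higher, with a median of −0.14 and 14.8% of all genes lower, and without MEHP 1 and 2, 1 was lower and 7 were higher. In glutathione and oxidative stress 7 of 18 were lower. Cell cycle genes had 1 of 13 lower and 2 higher, immediate early genes 3 of 16 lower and 5 higher, endoplasmic reticulum stress 2 of 11 each way and retinoid handling 2 of 13 lower. Adrenal cortex markers had 1 of 5 lower, mesonephric duct markers 2 of 8 higher, Sertoli markers 4 of 18 higher, and peritubular and interstitial, endothelial, and macrophage markers 1 lower each out of 12, 9 and 10. No erythroid marker of 6 had all 4 differences on the same side.

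Pairs that share no array gave a further reading. The 17 genes called lower with DEHP than with TOTM were below 0 for MEHP minus EHO in 15 cases, where the median of all genes was 0.16. Over all called genes of that pair 22 of 49 had the same sign, against 42.9% of all genes, a share that counts both directions. Of the 615 genes called lower with DEHP than with EHO, 43 were below 0 for MEHP minus TOTM, where the median of all genes was −0.07. Over all 971 called genes the share with the same sign was 13.7% against 31.4% of all genes. In the reverse readings, 131 of 399 genes called for MEHP and EHO had the same sign for DEHP minus TOTM (32.8%). Of 461 called for MEHP and TOTM, 39 had the same sign for DEHP minus EHO (8.46%). The share of all genes below 0 in a single pair is not given here.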

How the data were processed

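Per the file headers, the array files give the intensity of every spot from Agilent Feature Extraction 9.5.3.1 on a 1-colour rat array, and the submitters' processing notes name version 9.5. The authors' deposited table gives signed folds with p-values, by probe, for every compound against control, and the tool behind it is not given in the sources used here.

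Outlier spots were set aside, log2 signals of repeated spots were averaged, and every array was centred on its own 75th percentile. A probe stayed in where 1 group or more had it well above background on all its arrays (28133 of 41012), with 1 probe for each of 24248 genes, 7929 of which have a symbol. All 19 samples were fitted with limma 3.58.1 in R 4.3.3, with 14 residual and 2.53 prior degrees of freedom. The class difference was adjusted by Benjamini-Hochberg over genes, and the 6 pairs jointly over genes and pairs. The number of arrays limits the precision. The fit was tested on simulated data.

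Named genes were a fixed set, the 8 smallest p-values each way, up to 8 phthalate-only genes and up to 3 of each list. Acaca, Acly, Elovl6, Fasn, Fdft1, Nsdhl, Por, Sqle and Srebf2 fall outside that rule and were chosen after their values were seen. Some list members are counted but not reported singly here. Members and lists were chosen with earlier results of these data known. Replicate numbers did not pair the samples. Alternatives covered scaling, background, filters, array weights and left-out arrays.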

Additional observations from a re-analysis of the deposited data

Results flagged for a closer look

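Of 227 values of a gene in a group of 4 samples, 11 had 1 array far from the other 3, where chance gives about 1 in 20, and 8 of the 11 were in EHO. EHO 3 lay below the other EHO arrays for Tm7sf2 (1.86, next 2.48), Gsta3 (3.92, next 4.53), Pdyn (2.50, next 2.87) and Ddc (1.71, next 2.57). EHO 1 lay above the others for Acsl4 (0.60, next 0.36) and for Nr2f2, an interstitial transcription factor (3.71, next 2.95). Slc3a2 was highest on EHO 2 (2.43, next 2.13) and Corin on EHO 4 (−3.52, next −4.56). In TOTM, array 2 was low for Dhcr7 (2.55, next 2.81) and Amh (5.80, next 6.16), and in DEHP, array 4 was low for Pdyn (1.69, next 2.33). The cause was not tested.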

How the results depend on the processing

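The count of genes called between the classes was 0 and became 1 with normexp and quantile normalization, with quantile normalization alone or with median scaling, 2 with a filter on all 20 arrays or without MEHP 1 and 2, 3 with MEHP 1 and 2 as separate samples, 5 over all probes, 10 with weighted arrays and 26 without MEHP 3 and 4. With each array left out it ran from 0 to 20, with 20 without MEHP 3, 3 without EHO 4 and 1 without EHO 3. It was 29 for DEHP alone against both relatives, 66 for MEHP alone, 186 for both phthalates against TOTM and 571 against EHO. Phthalate-only genes with an adjusted p numbered 2 with weighted arrays, 13 without MEHP 3 and 4, and 0 to 9 with each array left out. Genes past the threshold in all 4 pairs numbered 0 in every setting run. Slide as a random block gave 0 genes between the classes.

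Normexp and quantile normalization gave 129 genes for DEHP and TOTM, 1555 for DEHP and EHO, 882 for MEHP and TOTM and 831 for MEHP and EHO. Median scaling gave 9 for DEHP and TOTM, 157 for MEHP and TOTM and 138 for DEHP and MEHP. Weighted arrays gave 222 for DEHP and TOTM, 310 for DEHP and EHO, 1610 for MEHP and TOTM, 154 for MEHP and EHO, 767 for DEHP and MEHP and 646 for TOTM and EHO. Without MEHP 3 and 4 the counts were 204 for MEHP and TOTM, 43 for MEHP and EHO and 157 for DEHP and MEHP. Without EHO 1 and 2 they were 313 for DEHP and EHO, 126 for MEHP and EHO and 569 for TOTM and EHO. With each array left out they ran from 15 to 167, 462 to 6461, 271 to 961, 102 to 3441, 222 to 511 and 821 to 8169 for DEHP and TOTM, DEHP and EHO, MEHP and TOTM, MEHP and EHO, DEHP and MEHP, and TOTM and EHO.

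Hsd3b1 and Nr0b1 turned to 0.0603 and 0.00928 without MEHP 1 and 2, Ergic2 and Ppp1r14bl to −0.44 and −0.32 for DEHP alone against both relatives, and Elovl6 to 0.17 against TOTM alone. The cause was not tested. Same-numbered samples of 2 groups had a correlation over 0.1 in 16 of 40 cases (−0.68 to 0.49), so the numbers did not pair them, and the replicate block gave 0 genes between the classes.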

Other observations

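TOTM and EHO differed from each other in 1734 genes and the phthalates in 333, a contrast that was not tested, and some genes set the relatives on opposite sides of the phthalates. Nr2f2, a transcription factor of interstitial cells, averaged 1.47 ± 0.26 with TOTM and 3.07 ± 0.43 with EHO (SD, n = 4 each), a difference of −1.60 (limma adjusted p = 0.000177), with DEHP at 2.12 ± 0.07 and MEHP at 2.40 ± 0.19 between them. Elovl6 showed the same order, at 1.25 ± 0.05 with TOTM and 2.10 ± 0.29 with EHO (adjusted p = 0.00445), with DEHP at 1.39 ± 0.21 and MEHP at 1.45 ± 0.18. A mean over both relatives hides such genes: the class difference of Elovl6 was −0.25. EHO arrays were also the dimmest, and the part of signal in these differences was not tested.

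In the authors' deposited table the MEHP folds tracked MEHP 1 and 2, while the DEHP folds differed from the mean of all 4 DEHP arrays by a median of 0.0666 in log2 and the TOTM folds from the mean of all 4 TOTM arrays by 0.0427. Across 3653 probes, which are not independent replicates, the authors' MEHP folds correlated with MEHP 3 minus control at −0.212. Star stood 10.3-fold below control on MEHP 1 and 2 and is listed at −9.9 in the authors' deposited table, while it lay at −0.09 on MEHP 3 and −1.59 on MEHP 4 in log2.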
